A study of Mus musculus with 6 samples.

Results

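The genes described here are *Myc* and 44 factors that build ribosomes, 45 of the 30281 gene symbols in the deposited tables. The 45 members were given as a list of symbols, and all were found. The list goes by function and uses no measured value as a criterion, but it was drawn up with earlier results of these data known. The members fall into 8 groups: *Myc*, RNA polymerase I, box C/D and U3 snoRNPs, box H/ACA snoRNPs, the small-subunit processome, late small-subunit factors, large-subunit assembly factors, and nucleolar scaffolds and chaperones.

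Ribosomes are assembled mainly in the nucleolus, where RNA polymerase I transcribes the ribosomal RNA precursor. Small nucleolar ribonucleoproteins (snoRNPs) then modify the precursor, and separate sets of assembly factors cut and fold it into the small and the large subunit. *Myc* is a transcription factor known to raise the transcription of many of these genes. Loss of *Tsc2*, a subunit of the complex that restrains the kinase complex mTORC1, leaves mTORC1 active, and mTORC1 is known to promote ribosome production. Rapamycin inhibits mTORC1.

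RNA-Seq was available from 6 mouse libraries, 1 per condition. Mouse embryonic fibroblasts (MEFs) of genotype *Tsc2*+/+ p53-/- and *Tsc2*-/- p53-/- gave 1 library each, so both MEF lines lack p53 by genotype and neither received a drug. MKOC and TJ cells are mouse kidney epithelial cells labelled *Tsc2*-null, of which TJ cells came from a tumor of C57BL6 mice. Each kidney line gave 1 library without the drug (diluent) and 1 after exposure to 100 nM rapamycin for 18 hours in serum-free medium. No library came from a kidney line with *Tsc2*, and each line stands for itself alone. In bulk RNA, fewer cells of a type and less RNA per cell cannot be told apart, and every value below is relative to the rest of its library.

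A few promoter sequences are shown first, since *Myc* and its partner *Max* bind the E-box CACGTG. RefSeq promoters (GRCm38.p6, 250 bases before to 50 bases after the gene start) were matched for 39 of the 45 members. The letters CACGTG, which read the same on both strands, occurred in 9 of these 39 (23.1%), in 8.09% of the promoters of all 27025 genes with a sequence, and in 11.6% of those of the 9514 genes that were tested for rapamycin. The 9 genes were *Nop2*, *Grwd1*, *Ltv1*, *Utp20*, *Pes1*, *Mybbp1a*, *Tsr1*, *Rrn3* and *Wdr43*. Below are the 3 of these promoters whose genes were also named as having an extreme change or the highest level in their group, 5′ to 3′ on the gene's strand with the matched letters in capitals. *Nop2* lies on the plus strand (chr6:125131633-125131932), *Ltv1* on the minus strand (chr10:13193088-13193387) and *Utp20* on the minus strand (chr10:88826765-88827064).
Nop2: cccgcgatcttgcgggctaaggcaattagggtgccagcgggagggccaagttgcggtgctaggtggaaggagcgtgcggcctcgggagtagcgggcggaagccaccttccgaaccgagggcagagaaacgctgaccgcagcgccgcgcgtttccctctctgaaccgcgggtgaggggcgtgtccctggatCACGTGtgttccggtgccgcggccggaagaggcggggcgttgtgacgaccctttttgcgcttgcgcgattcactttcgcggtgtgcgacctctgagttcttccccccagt
Ltv1: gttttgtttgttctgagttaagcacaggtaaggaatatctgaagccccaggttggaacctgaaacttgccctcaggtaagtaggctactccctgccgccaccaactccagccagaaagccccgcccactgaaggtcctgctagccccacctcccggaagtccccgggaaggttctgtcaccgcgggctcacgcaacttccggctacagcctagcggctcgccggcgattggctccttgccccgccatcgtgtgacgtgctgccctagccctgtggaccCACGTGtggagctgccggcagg
Utp20: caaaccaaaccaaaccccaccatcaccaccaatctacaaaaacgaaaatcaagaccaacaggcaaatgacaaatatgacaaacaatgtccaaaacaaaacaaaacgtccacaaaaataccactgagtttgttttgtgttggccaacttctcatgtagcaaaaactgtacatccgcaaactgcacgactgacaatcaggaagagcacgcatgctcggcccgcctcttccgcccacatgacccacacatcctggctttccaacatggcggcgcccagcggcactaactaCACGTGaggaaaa
The match begins 60 bases before the RefSeq gene start in *Nop2*, and 28 and 37 bases after it in *Ltv1* and *Utp20*. Counted from the GENCODE M21 gene start, which differs, it begins 86 bases before the start in *Nop2* and 59 and 27 bases after it in *Ltv1* and *Utp20*. A match of these letters is a description of the sequence and not a measured binding site. All 9 genes were among those that fell with rapamycin (below), as did most members without a match.

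Depth was between 22887020 and 37505004 estimated counts per library, and members had between 426 and 128044 counts in a library. *Tsc2* RNA was not absent from the libraries labelled as lacking it: it was at 22.6 TPM in *Tsc2*+/+ MEFs, 10.5 TPM in *Tsc2*-/- MEFs and 19.1 to 49.1 TPM in the kidney lines. Which exons these counts cover is not given by the table, so they do not check the labels, and the genotypes named here are those of the labels. TPM is a transcript's share of its library per unit of transcript length. Both kidney lines expressed *Cdh1*, *Krt8*, *Krt18*, *Pax8* and *Cdh16* at 101 TPM or more in every library. The epithelial markers *Epcam* and *Cldn7* and the tubule marker *Umod* were at or near 0 there. Of the markers listed, 6 of 9 epithelial and 5 of 10 kidney epithelial genes reached 1 TPM in each kidney library. *Krt19*, *Lrp2*, *Aqp2*, *Slc12a1* and *Slc12a3* were also below 1 TPM in all of them. *Aqp1* was at 61.3 TPM in *Tsc2*+/+ MEFs and 8.74 to 28.0 TPM in the kidney lines. The MEFs expressed *Col1a1*, *Col1a2* and *Col3a1* at 274 TPM or more, and these collagens were at 1.07 TPM or less in the kidney lines. *Pdgfra*, *Pdgfrb* and *Fn1* of the fibroblast list were also higher in both MEF libraries than in every kidney library. *Thy1* of that list was at 0.0 TPM in *Tsc2*+/+ and 7.36 TPM in *Tsc2*-/- MEFs. *Vim* and *S100a4* were expressed in both cell types: *Vim*, encoding vimentin, was at 3520 and 1120 TPM in *Tsc2*+/+ and *Tsc2*-/- MEFs and between 3610 and 7520 TPM in the kidney lines, where *S100a4* was at 58.1 to 152.4 TPM.

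The 45 members differed widely in level (plot of TPM by library). The mean over the 6 libraries ranged from 19.9 TPM for *Utp20* to 2228 TPM for *Npm1*, which encodes the abundant nucleolar chaperone nucleophosmin. Without *Npm1*, the other 44 members together took 0.852% and 0.851% of all gene counts in untreated MKOC and TJ cells, and 0.643% and 0.575% after rapamycin. In the *Tsc2*+/+ and *Tsc2*-/- MEFs they took 0.912% and 0.86%, but without *Ncl* the share was 0.638% and 0.675%, and the summed level of the 44 was 4750 and 5638 TPM, so the order of the MEFs depends on the measure. The lower share after rapamycin was present in both kidney lines.

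**Figure D1:**
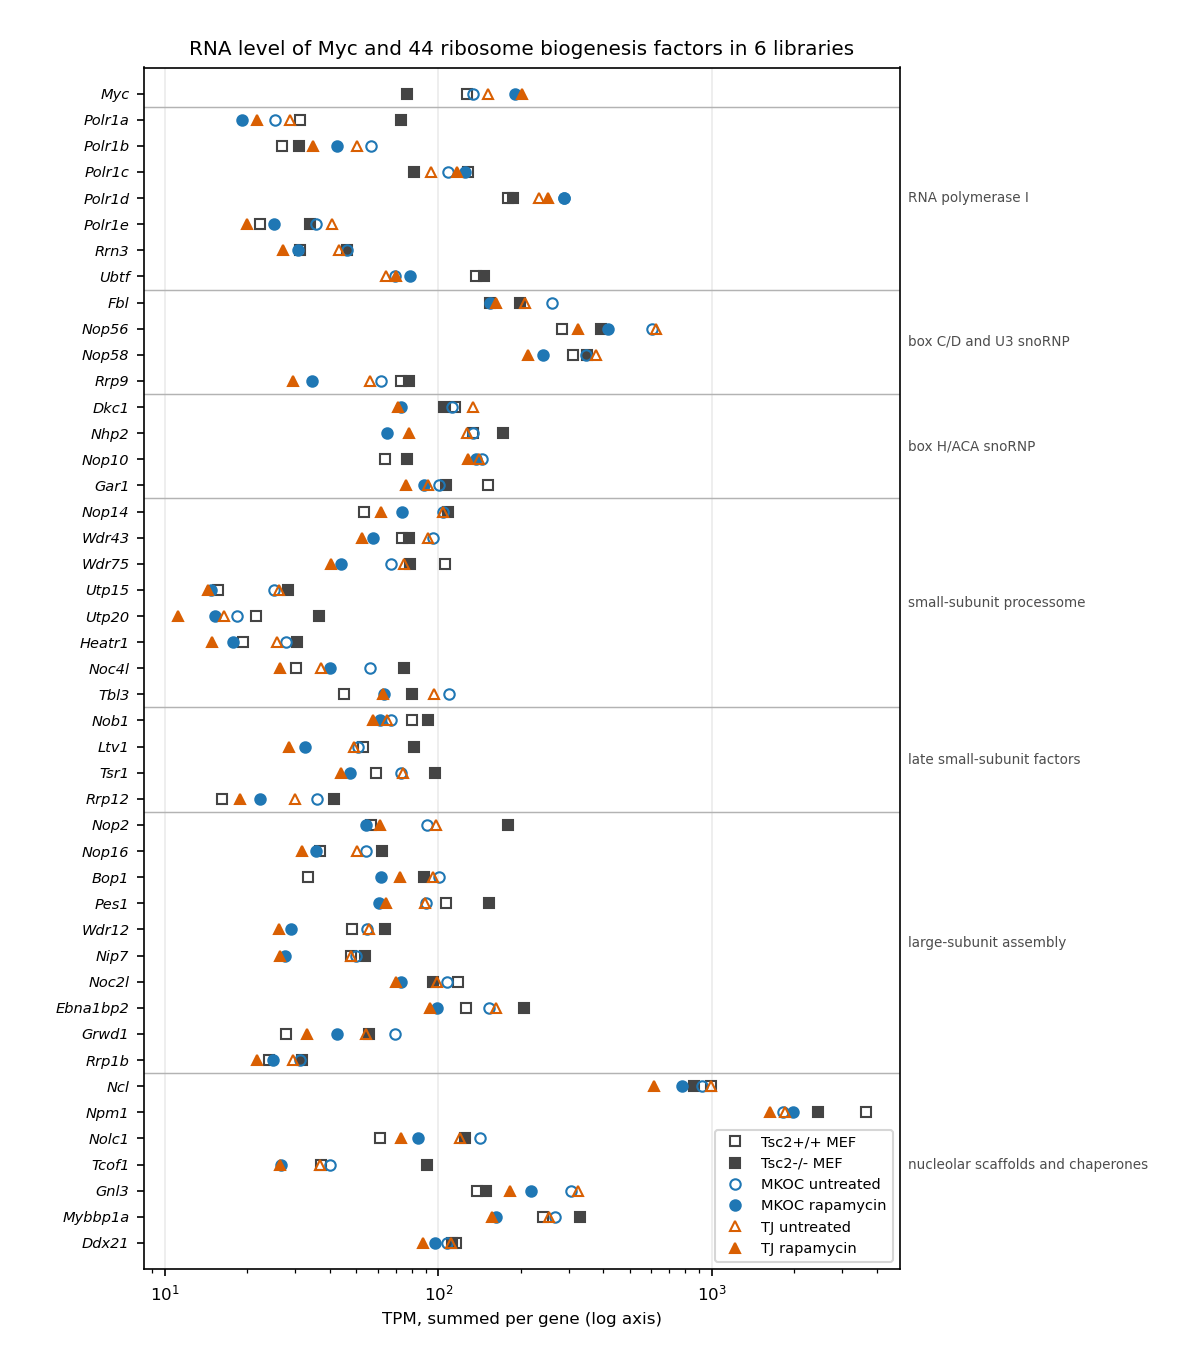
TPM of the 45 members, summed over the transcripts of each gene (log axis), in the 6 libraries, with 1 symbol per library and lines between the 8 groups. In most rows the filled kidney symbols (rapamycin) lie left of the open ones (untreated), and *Myc* is an exception.

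The kidney libraries compare the members with and without rapamycin in cells labelled *Tsc2*-null, and they do not measure mTORC1 activity itself. Of the 45 members, 36 fell, 1 rose and 8 did not pass the test (edgeR's quasi-likelihood test with cell line as a covariate, adjusted p below 0.05). Over all 12952 genes tested, 17.4% fell and 17.5% rose. The median log2 fold change was -0.65 over the members and 0.02 over all genes. All 36 that fell did so in MKOC and in TJ cells, and the median change of the 45 was -0.58 in MKOC and -0.68 in TJ. For 39 members, TPM in both untreated libraries was above TPM in both rapamycin libraries, which was the case for 28.6% of the genes tested.

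The test has 2 cell lines as its replicates and 1 residual degree of freedom per gene. With 1 library left out and no term for the line, it called 0 members lower without untreated MKOC, 0 without untreated TJ, 12 without treated MKOC and 4 without treated TJ, while 30, 33, 35 and 33 members were lower at an unadjusted p below 0.05, beside 9.16%, 10.6%, 13.6% and 12.7% of all genes in the same fits. Epithelial markers rose in the same libraries (5 of 6 tested, 0 fell), with a summed level of 1177 and 1154 TPM in untreated and 1988 and 2053 TPM in treated MKOC and TJ cells, led by *Krt7* and *Krt8* (log2 fold changes of 1.16 and 0.79). In the other lists 3 of 8 fibroblast genes rose, *S100a4* by 0.75, *Vim* by 0.66 and *Col3a1* by 1.53 (SE 0.52) on the log2 scale. *Col3a1* was near the floor, at 0.473 and 0.139 TPM in untreated and 0.973 and 1.07 TPM in treated MKOC and TJ cells. Of 7 kidney epithelial genes *Cdh16* rose, by 0.37. Of 3 macrophage genes tested, *Cd14* and *Csf1r* rose by 0.75 and 0.45, while *Ptprc* and *Adgre1* were at 0.0423 TPM or less in the kidney libraries. Of 16 cell cycle genes 5 fell, with the largest falls in *Mcm2* (-0.48) and *Bub1* (-0.44). The part of these genes in the changes of the members was not tested.

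**Figure D2:**
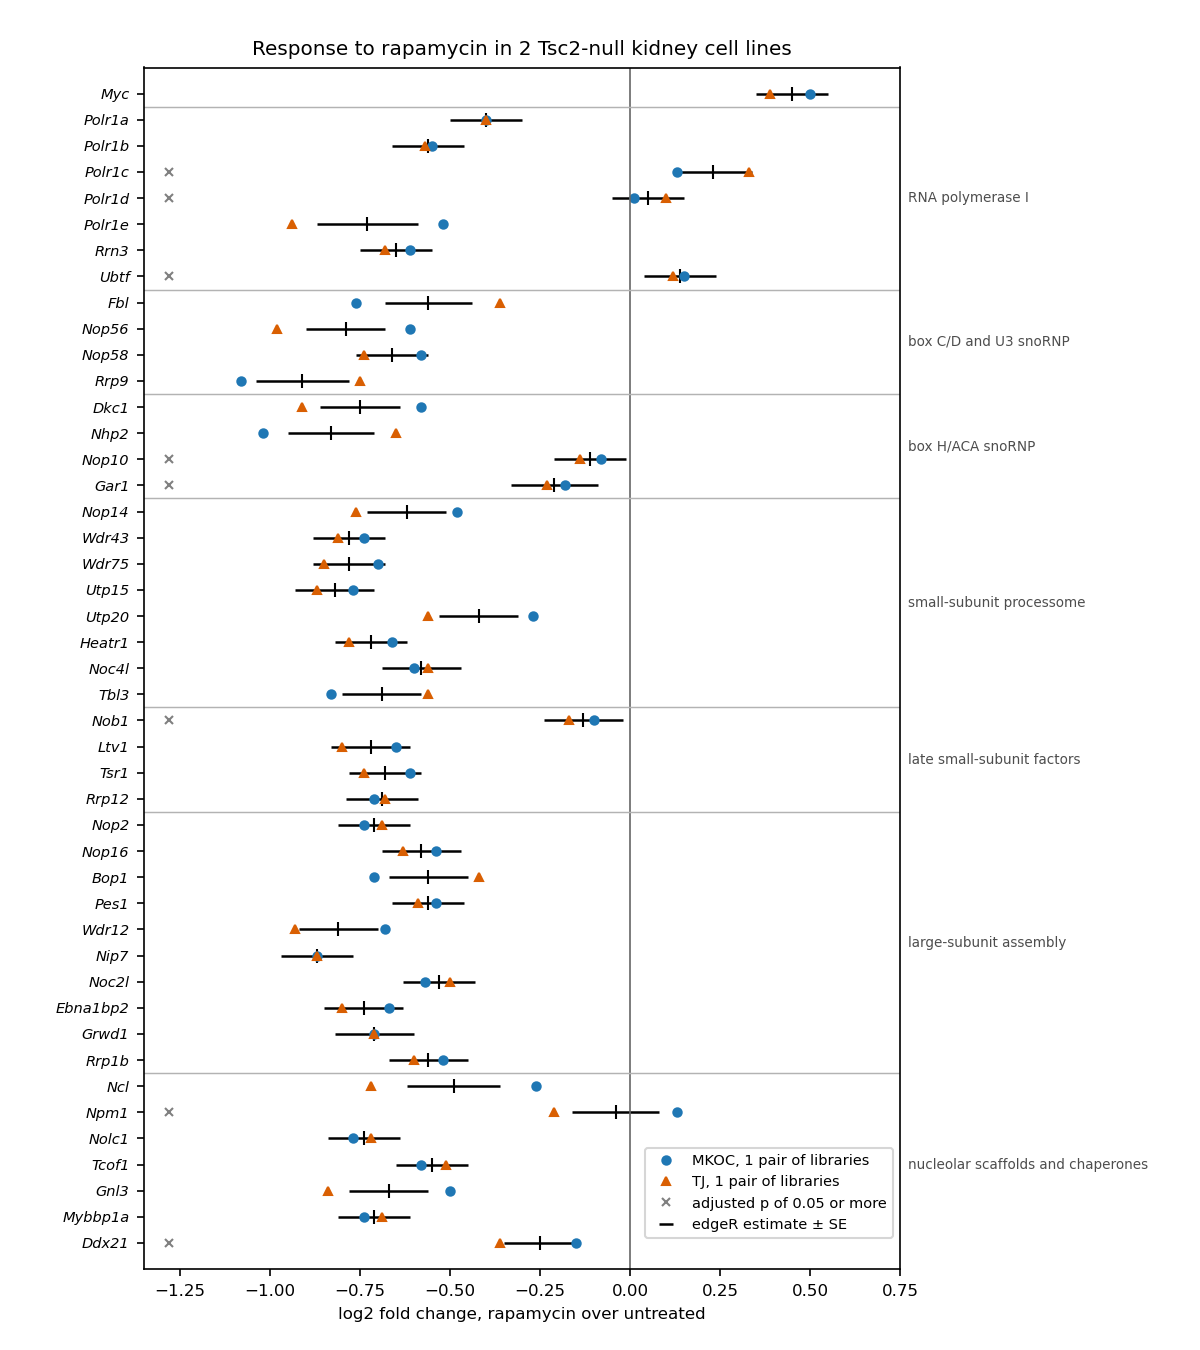
Log2 fold change with rapamycin for each member, as the edgeR estimate with its SE (bars) over 2 kidney lines, with the change in MKOC (circles) and in TJ (triangles). Crosses at the left mark the 8 members with an adjusted p of 0.05 or more. *Myc* is the only member to the right of 0 that passed the test.

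*Myc* (chromosome 15, 61985391 to 61990374, plus strand, GRCm38) moved against the factors. It was at 133.3 TPM in untreated and 190.2 TPM in treated MKOC cells, and at 152.1 and 201.5 TPM in the TJ line, so both treated libraries were above both untreated ones. The log2 fold change was 0.45 ± 0.10 (SE; adjusted p = 0.0059), with 0.50 in MKOC and 0.39 in TJ. Without the covariate for the line it did not pass (adjusted p = 0.071), nor with any of the 4 libraries left out (adjusted p of 0.12 to 0.34).

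Genes of the *Myc* network were measured beside it. *Myc* acts as a dimer with *Max*, which also pairs with the Mxd proteins and *Mnt*, antagonists of *Myc* on DNA. Of 14 such genes, 11 were tested, of which 4 rose and 1 fell. *Mxd4* had 9.36 and 12.9 TPM in untreated and 31.8 and 46.9 TPM in treated MKOC and TJ cells (log2 fold change 1.81 ± 0.11, adjusted p = 6.7e-06). *Mxd1* went from 1.91 and 3.22 to 5.56 and 5.38 TPM (1.12 ± 0.20, adjusted p = 0.0021). The other risers were *Mnt* (0.91 ± 0.12, adjusted p = 0.00038) and *Mga* (0.33 ± 0.10, adjusted p = 0.028), while *Mlx* fell by 0.72 on the log2 scale (adjusted p = 0.0011). *Max* had a log2 fold change of -0.24 ± 0.11 (adjusted p = 0.12). *Mycn* and *Mycl*, the other genes of the *Myc* family, had 0.395 TPM or less in the kidney lines.

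Of 15 other genes known as *Myc* targets, none of them members, 11 fell and 1 rose. The largest falls were those of *Ldha*, lactate dehydrogenase A, at 3486 and 3379 TPM untreated and 891.5 and 1119 TPM treated in MKOC and TJ (log2 fold change -1.79 ± 0.13, adjusted p = 1.7e-05), and of *Tfrc*, the transferrin receptor (-1.73 ± 0.10, adjusted p = 6.1e-06). *Odc1*, ornithine decarboxylase, rose (0.36 ± 0.11, adjusted p = 0.027).

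RNA polymerase I members fell in part (4 of 7 fell, 3 did not pass). *Polr1a* encodes the largest subunit and was at 25.2 and 28.7 TPM in untreated and 19.2 and 21.8 TPM in treated MKOC and TJ cells. Its log2 fold change was -0.40 ± 0.10 (adjusted p = 0.012), but it did not pass with limma on log2(TPM + 1) (adjusted p = 0.054) or without the line covariate (adjusted p = 0.093). *Polr1e*, a further subunit, fell most in the group (-0.73 ± 0.14, adjusted p = 0.003), from 35.8 to 25.0 TPM in MKOC and from 41.0 to 19.9 TPM in TJ. *Polr1b*, also of the catalytic core, and the initiation factor *Rrn3* fell by 0.56 and 0.65 on the log2 scale. *Rrn3* was at 46.5 and 43.2 TPM untreated and at 30.7 and 27.0 TPM treated in MKOC and TJ. *Polr1c* and *Polr1d* encode subunits that RNA polymerase I shares with RNA polymerase III, and neither passed the test. *Polr1c* had 108.3 and 125.2 TPM in MKOC and 93.7 and 116.7 TPM in TJ, untreated and treated (0.23 ± 0.11, adjusted p = 0.13). *Polr1d* had 288.1 and 288.7 TPM in MKOC and 233.8 and 251.1 TPM in TJ (0.05 ± 0.10, adjusted p = 0.72). *Ubtf*, the upstream binding factor of the ribosomal DNA, had 69.4 and 78.7 TPM in MKOC and 64.1 and 69.9 TPM in TJ (0.14 ± 0.10, adjusted p = 0.29). The treated library was the higher of the pair in both lines for these 3 genes.

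Box C/D snoRNPs guide methylation of ribosomal RNA, and the related U3 snoRNP acts in the first cuts of the precursor. All 4 members fell, by a median of 0.73 on the log2 scale. *Rrp9*, a protein of the U3 particle (chromosome 9, 106475963 to 106485424, plus strand), had the lowest log2 fold change of all 45. It was at 61.8 and 56.0 TPM in untreated and 34.4 and 29.5 TPM in treated MKOC and TJ cells (-0.91 ± 0.13, adjusted p = 0.00066). *Nop56*, a core protein and the most abundant of the group, went from 603.8 to 418.2 TPM in MKOC and from 622.4 to 324.8 TPM in TJ (-0.79 ± 0.11, adjusted p = 0.00067). *Fbl*, the methyltransferase fibrillarin, went from 259.7 to 154.2 TPM in MKOC and from 206.5 to 162.1 TPM in TJ (-0.56 ± 0.12, adjusted p = 0.0048, and 0.065 without the line covariate). Of the 31-base words in the main transcript of *Fbl*, 79.0% also occur in transcripts of *Gm5812*, *Gm6211* or *Tulp4*, so its counts are uncertain. With the counts of the predicted genes *Gm5812* and *Gm6211* added, the change was -0.55. *Nop58*, the other core protein, fell by 0.66, from 345.9 to 240.6 TPM in MKOC and from 378.3 to 213.1 TPM in TJ.

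Box H/ACA snoRNPs guide pseudouridine formation. Here 2 of 4 fell and 2 did not pass the test, although all 4 were lower in both lines. *Nhp2* was at 134.3 and 127.3 TPM in untreated and 65.0 and 78.1 TPM in treated MKOC and TJ cells (-0.83 ± 0.12, adjusted p = 0.00073), and *Dkc1*, the pseudouridine synthase, fell by 0.75, from 112.1 to 72.9 TPM in MKOC and from 133.3 to 71.1 TPM in TJ. *Nop10* had 144.7 and 141.0 TPM untreated and 137.3 and 128.4 TPM treated (-0.11 ± 0.10, adjusted p = 0.43). *Gar1* had 100.5 and 91.6 TPM untreated and 88.8 and 76.3 TPM treated (-0.21 ± 0.12, adjusted p = 0.21). The 4 proteins form a single core particle, and the difference between the changes of their RNAs was not tested.

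Factors of the small-subunit processome, the large particle that forms on the precursor, all fell (8 of 8, median -0.71). *Utp15*, of the early-binding UtpA subcomplex, was at 25.0 and 26.2 TPM in untreated and 14.7 and 14.4 TPM in treated MKOC and TJ cells (-0.82 ± 0.11, adjusted p = 0.00044). *Wdr75*, of the same subcomplex, went from 67.2 to 43.9 TPM in MKOC and from 74.8 to 40.6 TPM in TJ (-0.78 ± 0.10, adjusted p = 0.00048). *Utp20*, whose promoter is printed above, changed least in the group (-0.42 ± 0.11, adjusted p = 0.017), at 18.3 and 16.4 TPM untreated and 15.2 and 11.2 TPM treated. Its adjusted p was 0.092 with limma on log2(TPM + 1) and 0.20 without the line covariate, and its change lay between -0.19 (without treated TJ) and -0.65 (without treated MKOC) with 1 library left out. *Nop14* and *Noc4l*, partners in the particle, fell by 0.62 and 0.58 on the log2 scale (adjusted p = 0.0017 and 0.0027). *Noc4l* did not pass without the line covariate (adjusted p = 0.21), and its change lay between -0.26 (without untreated MKOC) and -0.89 (without treated MKOC) with 1 library left out. In MKOC and TJ, *Nop14* had 104.1 and 104.4 TPM untreated and 73.5 and 61.9 TPM treated. *Noc4l* had 56.2 and 37.1 TPM untreated and 40.1 and 26.4 TPM treated. *Wdr43*, *Heatr1* and *Tbl3*, the rest of the group, fell by 0.78, 0.72 and 0.69, and in all 8 genes both lines were lower after treatment.

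Among late small-subunit factors, 3 of 4 fell and *Nob1* did not pass the test. *Ltv1*, which acts on the precursor of the small subunit on its way to the cytoplasm, was at 50.9 and 49.2 TPM in untreated and 32.6 and 28.5 TPM in treated MKOC and TJ cells (-0.72 ± 0.11, adjusted p = 0.00098). *Rrp12* went from 36.1 to 22.3 TPM in MKOC and from 30.0 to 18.8 TPM in TJ (-0.69 ± 0.10, adjusted p = 0.00084, and 0.051 without the line covariate). *Tsr1* fell by 0.68, and 35.7% of the 31-base words of its main transcript are shared with *Srr* or *Gm20426*. *Nob1*, the nuclease that makes the final cut of the small-subunit RNA, had 67.0 and 64.8 TPM untreated and 61.1 and 57.6 TPM treated (-0.13 ± 0.11, adjusted p = 0.36).

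The large-subunit assembly factors formed the largest group, and 10 of 10 fell (median -0.65). *Nip7* changed most, from 49.8 to 27.5 TPM in MKOC and from 48.0 to 26.4 TPM in TJ (-0.87 ± 0.10, adjusted p = 0.00025), with a change of -0.87 in each line. *Nop2*, a methyltransferase of the large-subunit RNA whose promoter is printed above (gene at chromosome 6, 125131909 to 125144753, plus strand), was at 90.5 and 97.8 TPM in untreated and 54.4 and 61.0 TPM in treated MKOC and TJ cells (-0.71 ± 0.10, adjusted p = 0.00054). *Ebna1bp2*, the most abundant of the group, went from 152.5 to 98.7 TPM and from 162.3 to 93.1 TPM (-0.74 ± 0.11, adjusted p = 0.00066). *Noc2l* changed least (-0.53 ± 0.10, adjusted p = 0.0023), at 107.9 and 98.5 TPM untreated and 73.3 and 69.9 TPM treated. *Bop1*, *Pes1* and *Wdr12*, which together form the PeBoW complex, fell by 0.56, 0.56 and 0.81 on the log2 scale. *Wdr12* was at 55.0 and 55.6 TPM untreated and 28.9 and 26.1 TPM treated, and *Pes1* at 90.2 and 89.4 TPM untreated and 60.8 and 64.3 TPM treated in MKOC and TJ. *Bop1* had 100.5 and 95.7 TPM untreated and 61.7 and 72.1 TPM treated. *Nop16*, *Grwd1* and *Rrp1b* fell by 0.58, 0.71 and 0.56.

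Nucleolar scaffolds and chaperones fell in 5 of 7 cases. *Nolc1*, a chaperone of snoRNPs, was at 141.7 and 119.9 TPM in untreated and 83.9 and 72.9 TPM in treated MKOC and TJ cells (-0.74 ± 0.10, adjusted p = 0.00037). *Tcof1*, encoding treacle, went from 40.2 to 26.5 TPM in MKOC and from 37.0 to 26.3 TPM in TJ (-0.55 ± 0.10, adjusted p = 0.0028). *Ncl*, *Gnl3* and *Mybbp1a*, encoding nucleolin, nucleostemin and a nucleolar Myb-binding protein, fell by 0.49, 0.67 and 0.71 on the log2 scale. *Ncl* was at 916.9 and 991.7 TPM untreated and 777.6 and 611.9 TPM treated in MKOC and TJ. *Gnl3* was at 306.5 and 325.0 TPM untreated and 218.1 and 182.0 TPM treated, and *Mybbp1a* at 267.1 and 253.6 TPM untreated and 162.5 and 157.6 TPM treated. The helicase gene *Ddx21* had 107.5 and 111.4 TPM untreated and 97.6 and 87.5 TPM treated, with a log2 fold change of -0.25 ± 0.10 (adjusted p = 0.077).

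*Npm1* (chromosome 11, 33152287 to 33163206, minus strand), the member with the highest level, went opposite ways in the kidney lines. It was at 1813 and 1973 TPM in untreated and treated MKOC cells and at 1845 and 1634 TPM in the TJ line. On the log2 scale this was a change of 0.13 in MKOC (95% counting interval 0.11 to 0.15) and -0.21 in TJ (-0.23 to -0.19), and -0.04 ± 0.12 over both (adjusted p = 0.83). Of the 31-base words of its main transcript, 44.3% occur in other genes, and adding the counts of 8 predicted genes left the change at -0.04.

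The size of the response differed between the lines for some members, with 1 pair of libraries per line and so no test of the difference. In 9 members the changes in the 2 lines lay more than 0.3 apart, and the largest gap was 0.46, for *Ncl* (-0.26 in MKOC, -0.72 in TJ). In 6 of the 9 the change was lower in TJ: *Ncl*, *Polr1e* (-0.52 and -0.94), *Nop56* (-0.61 and -0.98), *Dkc1* (-0.58 and -0.91), *Gnl3* (-0.50 and -0.84) and *Npm1*. In the other 3 it was lower in MKOC: *Fbl* (-0.76 and -0.36), *Nhp2* (-1.02 and -0.65) and *Rrp9* (-1.08 and -0.75). Over all 45 members, the change was lower in TJ in 31. Neither this count nor that of the 9 members was set beside a share of all genes, so nothing is read from them.

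Ribosome biogenesis genes outside the 45 members were then counted. In the 5 lists of other factors, 69 of 123 tested genes fell (56.1%) and 2 rose, with a median log2 fold change of -0.38. By list, 6 of 10 other snoRNP assembly genes, 23 of 36 other processome genes and 6 of 11 other late small-subunit genes fell. So did 32 of 57 other large-subunit genes and 2 of 9 other RNA polymerase I genes. The RNA polymerase I count is close to the 17.4% of all genes, and its list had a median of -0.04, so nothing is read from it. *Cirh1a*, of the UtpA subcomplex, fell by 1.05 (adjusted p = 5.3e-05), *Rpf2* and *Mrto4* of the large subunit each by 0.94, and *Ruvbl2* of the snoRNP assembly list by 0.85. Next in their lists were *Nol11* of the processome (-0.84) and *Naf1* of snoRNP assembly (-0.69). The lowest of the late small-subunit list were *Pno1* and *Dimt1* (-0.73 and -0.67). Of the RNA polymerase I genes, *Cd3eap* and *Twistnb* fell by 0.77 and 0.74. The 2 that rose were *Gltscr2* (0.60 ± 0.11, adjusted p = 0.0021) and *Zfp622* (0.37 ± 0.11, adjusted p = 0.024).

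Of 21 RNA polymerase III genes 4 fell and 3 rose, close to the 17.4% and 17.5% of all genes, so nothing is read from these counts. *Polr3c* and *Polr3f* fell by 0.51 and 0.46, and *Polr3b* and *Maf1*, the repressor of this polymerase, rose by 0.52 and 0.47 on the log2 scale. Genes of the cytosolic ribosomal proteins, the products that these factors assemble with ribosomal RNA, passed the test in few cases: 7 of 80 fell and 3 rose, with a median of -0.11. *Rps27l* and *Rps2* fell by 0.60 and 0.59, and *Rpl10a* and *Rpl37a* each rose by 0.55. The summed level of the list was 156931 and 126202 TPM in untreated and 134811 and 125683 TPM in treated MKOC and TJ cells. Many ribosomal protein genes have near-identical pseudogenes, so single values among them are uncertain.

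**Figure D3:**
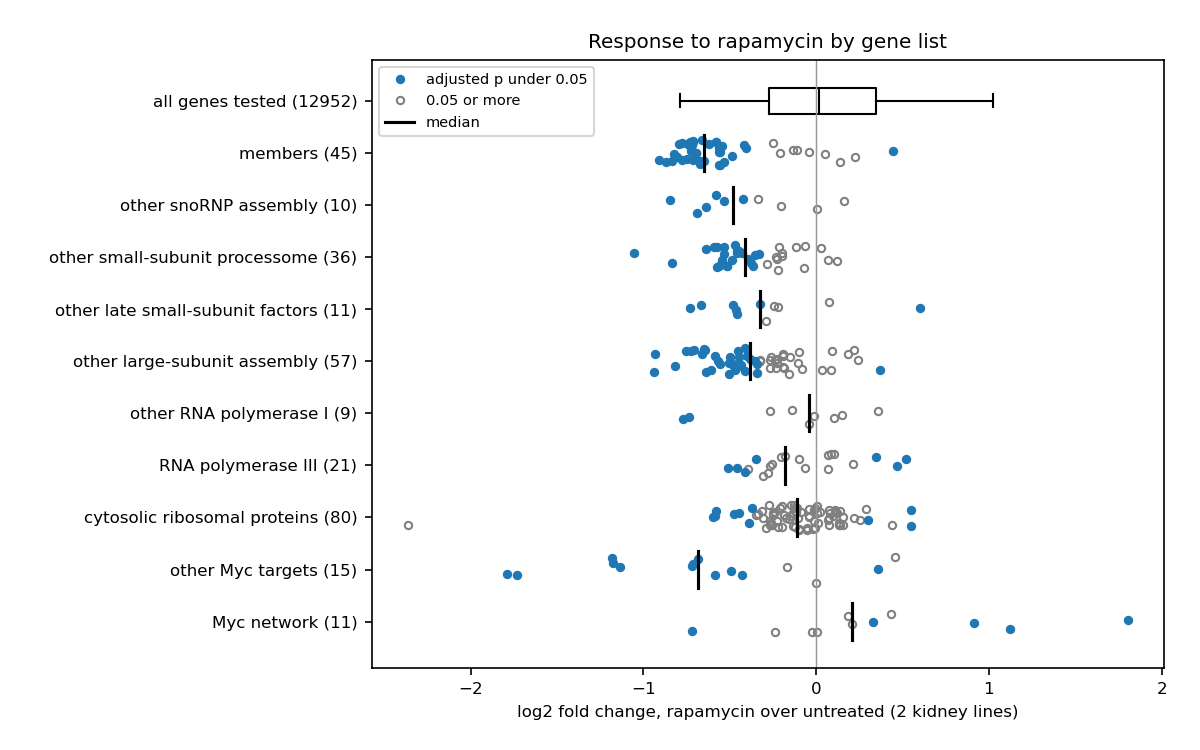
Log2 fold change with rapamycin over both kidney lines for the members, for related gene lists and for all genes tested (box: quartiles and median, whiskers: 5th to 95th percentile). Each point is a gene, filled where the adjusted p was below 0.05, and black ticks are medians. The members have a median of -0.65, the other *Myc* targets -0.69, and the ribosomal proteins -0.11.

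Between the MEFs labelled *Tsc2*-/- and *Tsc2*+/+, 1 library per genotype allowed no test, and fold changes are of TPM with 1 added, *Tsc2*-/- over *Tsc2*+/+. At least 2-fold higher were 8 of the 45 members, and 0 were at least 2-fold lower. Among the 12771 genes with 1 TPM or more in a MEF library, 25.2% were at least 2-fold higher and 5.18% at least 2-fold lower. The median log2 fold change was 0.40 over the members and 0.45 over those genes. The members thus lay near the general shift between the libraries, and 21 of 45 were above the median of all genes.

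That shift bears on each value. The median TPM ratio was 1.31 over the 7377 genes with 10 TPM or more in both libraries, and transcripts under 300 bases took 20.9% of TPM in the *Tsc2*+/+ and 7.12% in the *Tsc2*-/- library. With the ratio scaled to a median of 1, 1 member (*Nop2*) was at least 2-fold higher and 2 (*Myc* and *Polr1c*) were at least 2-fold lower. Of all genes, 15.8% were at least 2-fold higher and 8.21% at least 2-fold lower under the same scaling. The intervals below are for the TPM ratio itself and cover counting error only.

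*Nop2* differed most, with 56.9 TPM in *Tsc2*+/+ and 179.9 TPM in *Tsc2*-/- MEFs (ratio 3.16, 95% interval 3.04 to 3.28), and its log2 fold change was 1.64 before and 1.26 after scaling. The other 7 that were 2-fold higher came from 5 groups. *Bop1* of the PeBoW complex was at 33.3 and 88.4 TPM in *Tsc2*+/+ and *Tsc2*-/- MEFs, and *Rrp12* at 16.2 and 41.7 TPM. The processome partners *Noc4l* (30.1 and 74.7 TPM) and *Nop14* (53.3 and 108.2 TPM) were both in this set. *Tcof1* was at 37.2 and 91.1 TPM, *Polr1a* at 31.3 and 73.2 TPM, and *Nolc1* at 61.0 and 125.2 TPM. Their log2 fold changes ranged from 1.01 for *Nop14* to 1.38 for *Bop1*. After scaling, *Nop14* had 0.62 and *Rrp12* 0.93, and *Bop1* lay just under 2-fold. With the GC trend over all genes removed, a correction added after seeing the data, *Tcof1* went from 1.27 to 0.56, *Noc4l* from 1.28 to 0.68 and *Rrp12* from 1.31 to 0.68. Just under the threshold lay *Grwd1*, a chaperone for a ribosomal protein, with 0.98.

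Lower in *Tsc2*-/- MEFs was *Myc* itself, at 127.2 TPM (7504 counts) in *Tsc2*+/+ and 76.5 TPM (2054 counts) in *Tsc2*-/- MEFs. Its TPM ratio was 0.601 (0.572 to 0.631), the lowest of the 45. Its log2 fold change was -0.73, and -1.11 after scaling, -1.34 with TMM-scaled counts and -1.43 with the GC trend removed. Of its 8 listed transcripts, ENSMUST00000159327 held 778.7 of the counts in *Tsc2*+/+ MEFs and is listed at 0 in the other 5 libraries. *Mycn* had 0.0408 TPM in *Tsc2*+/+ and 8.16 TPM in *Tsc2*-/- MEFs. The members next to *Myc* were *Polr1c* at 127.8 and 81.2 TPM (ratio 0.635, 0.597 to 0.675), *Npm1* at 3650 and 2452 TPM (0.672, 0.665 to 0.679), *Gar1* at 151.8 and 106.4 TPM (0.701, 0.643 to 0.764) and *Wdr75* at 105.3 and 78.5 TPM (0.746, 0.716 to 0.777).

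By group, the MEF log2 fold change had a median of 0.77 in the processome, 0.66 in late small-subunit factors and 0.61 in large-subunit assembly. It was 0.27 in box C/D, 0.20 in RNA polymerase I, 0.11 in scaffolds and chaperones and 0.07 in box H/ACA. After scaling, the first 3 groups had medians of 0.39, 0.27 and 0.22, and the other 4 turned to -0.12, -0.18, -0.28 and -0.32 in the same order. The box C/D genes were close together, with *Rrp9* at 73.3 and 78.4 TPM, *Fbl* at 154.7 and 198.8 TPM and *Nop56* at 282.9 and 391.7 TPM in *Tsc2*+/+ and *Tsc2*-/- MEFs. With the GC trend removed, *Rrp9* went from 0.10 to -0.66 and *Fbl* from 0.36 to -0.31 on the log2 scale. In the H/ACA group, *Nhp2* was at 133.6 and 171.8 TPM and *Nop10* at 63.8 and 77.1 TPM. *Polr1e* (22.3 and 33.8 TPM), *Utp15* (15.7 and 28.2 TPM), *Utp20* (21.6 and 36.6 TPM), *Ltv1* (52.9 and 81.1 TPM) and *Ebna1bp2* (126.2 and 205.8 TPM) had TPM ratios between 1.52 and 1.79, but the log2 fold change of *Polr1e* went from 0.58 to -0.05 with TMM-scaled counts. *Polr1d* (179.2 and 187.9 TPM), *Nob1* (80.0 and 91.4 TPM) and *Nip7* (47.9 and 54.0 TPM) differed by less. After scaling, their log2 fold changes turned to -0.32, -0.2 and -0.21 in the same order. *Noc2l* was at 118.0 and 95.7 TPM (log2 fold change -0.30, and -0.94 with the GC trend removed). The other processome and large-subunit genes outside the members had medians of 0.38 and 0.40, and 10 of 16 cell cycle genes were at least 2-fold higher in *Tsc2*-/- MEFs. Epithelial keratin RNA also separated these libraries, with *Krt19* at 0.0506 TPM in *Tsc2*+/+ and 55.6 TPM in *Tsc2*-/- MEFs. The part of either in the differences of the members was not tested.

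**Figure D4:**
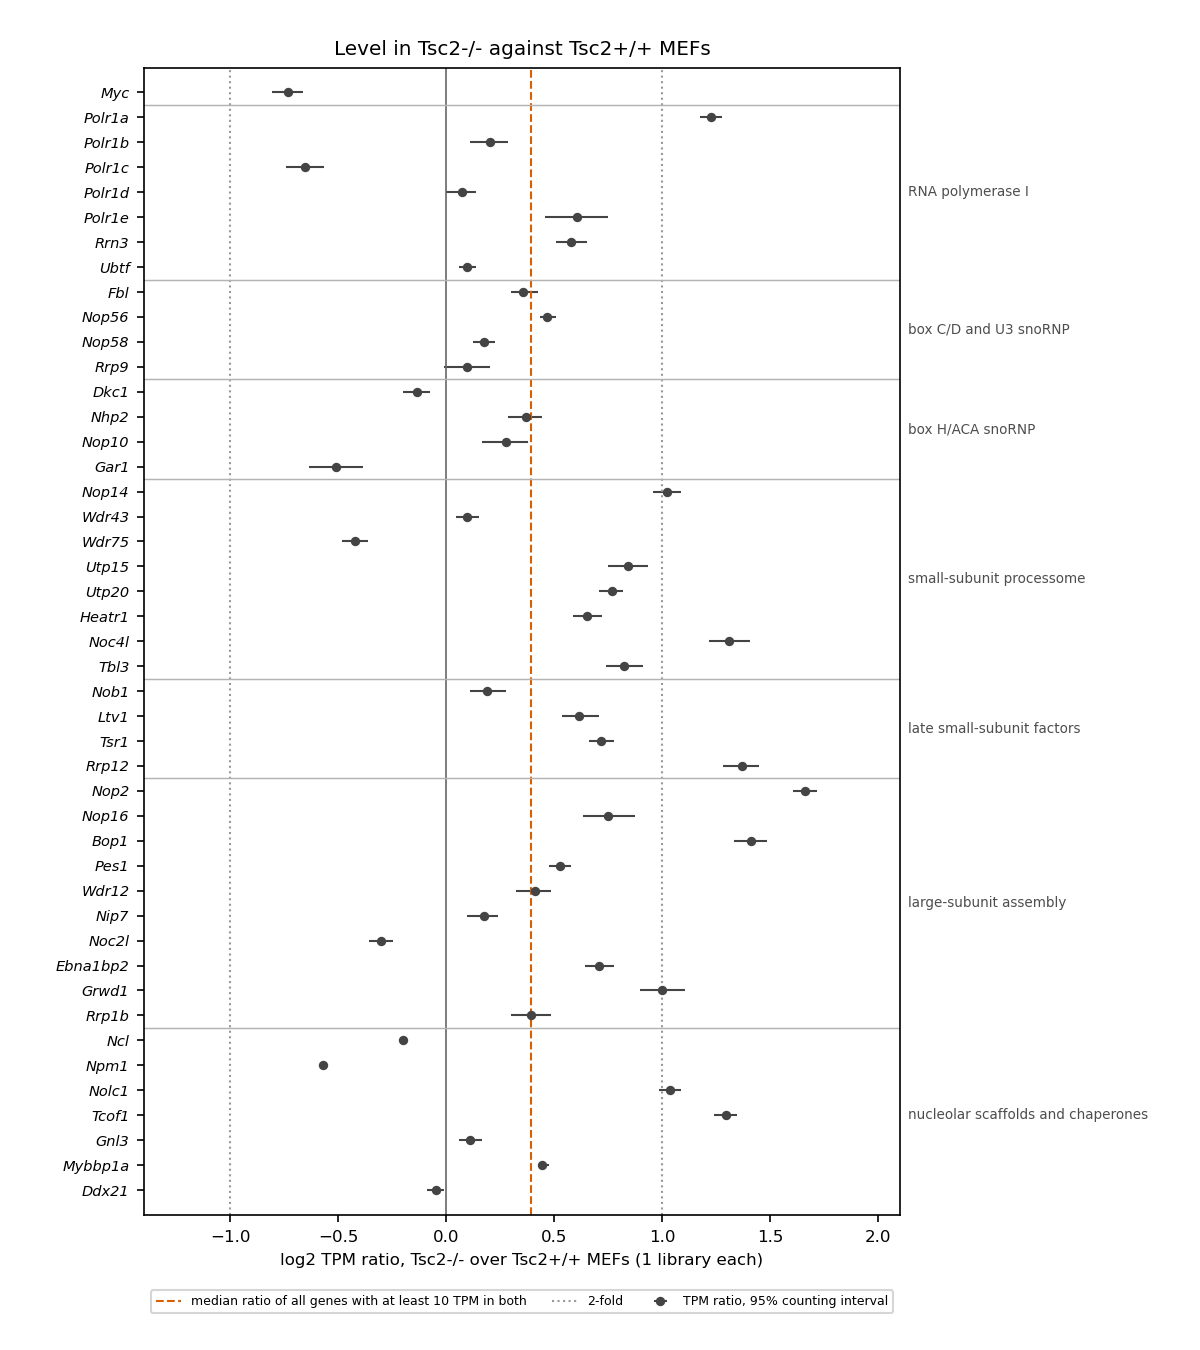
Log2 TPM ratio of each member, *Tsc2*-/- over *Tsc2*+/+ MEFs (1 library each), with 95% counting intervals. The dashed line is the median ratio of 1.31 over genes with 10 TPM or more in both, and dotted lines mark 2-fold. Points spread on both sides of the dashed line, with *Nop2* furthest right and *Myc* furthest left.

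The MEF and the kidney comparisons share no library, and their values can be set side by side. All 8 members that were 2-fold higher in *Tsc2*-/- MEFs fell with rapamycin in the kidney lines. Of all members 80.0% fell, so nothing is read from this count. Of the 2592 genes tested that were 2-fold higher in *Tsc2*-/- MEFs, 18.3% fell with rapamycin. Of the 21 members above the all-gene median of the MEF log2 fold change, 21 fell with rapamycin, and of the 24 below it 15 did (62.5%). Over all genes tested with a MEF value, 20.7% above and 17.2% below that median fell. The 36 that fell had MEF log2 fold changes of -0.42 to 1.64 (median 0.57). The 9 not called lower, *Myc* included, had -0.73 to 0.27 (median -0.05), below the 0.45 of all genes. The members' MEF log2 fold change also had a correlation of 0.34 with the log2 length of the main transcript and 0.30 with its GC content. Over all genes these were 0.07 and 0.17. The part of length and GC content in the values set side by side here was not tested. *Myc* lay at the end of both scales, as the only member that rose with rapamycin and the member with the lowest MEF ratio.

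**Figure D5:**
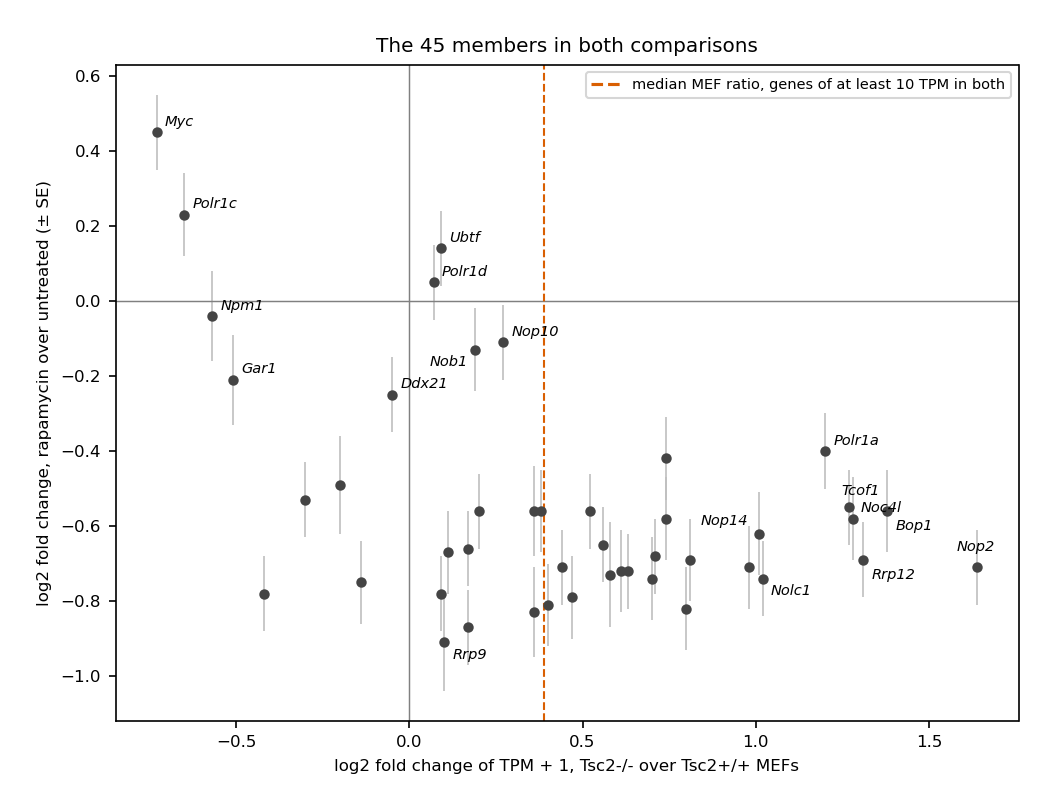
Each member's log2 fold change between the MEFs (x axis, TPM with 1 added, 1 library each) and with rapamycin in the kidney lines (y axis, edgeR estimate with SE). The dashed line is the log2 of the median MEF ratio (0.39), and the 9 members not called lower with rapamycin all lie left of it.

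The kidney lines were also compared with each other. In the line term of the same fit, 1 member passed the test lower in TJ and 0 passed higher, beside 3.32% and 5.47% of all genes. DESeq2 also called 1, and 7 members (15.6%) had an unadjusted p below 0.05, beside 22.7% of all genes. The member called was *Noc4l* (chromosome 5, 110648418 to 110653417, minus strand), with a log2 difference of -0.57 ± 0.11 for TJ over MKOC (adjusted p = 0.011), -0.59 untreated and -0.55 treated. *Grwd1* had -0.38 ± 0.11 (adjusted p = 0.056). Over the 45, the difference ranged from -0.57 to 0.17 with a median of -0.10. The treated and the untreated library of a line are its 2 samples in this test, and without any 1 library no member passed.

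Some annotated features that the choice of members did not use can be set beside the values. Of the 45 members 7 (15.6%) hold annotated snoRNA genes, against 1.71% of the 12952 genes tested, and the other members hold none. The 7 hold 21 snoRNA genes, 5 in *Nop56*, 4 in *Nop58*, 3 each in *Ncl*, *Gnl3* and *Wdr43*, 2 in *Tsr1* and 1 in *Dkc1* (GENCODE M21). All 7 host genes fell with rapamycin, as did 36 of all 45 members (80.0%), so nothing is read from this count. Transcripts annotated as retained introns held under 1% of the counts of 30 members in every library. They held 77.5% to 79.0% of the counts of *Ncl* and 88.3% to 89.5% of those of *Tbl3*. On protein-coding transcripts alone, *Ncl* and *Tbl3* fell by 0.48 and 0.65 on the log2 scale (adjusted p = 0.0048 and 0.012). The main transcript was 418 to 8831 bases long, with a median of 2827 bases in the 36 that fell and 1633 bases in the 9 not called lower. The median was 2759 bases over all members and 2546 bases over the genes tested. GC content of the main transcripts ranged from 42.4% for *Npm1* to 59.8% for *Rrp9*. Its median was 50.6% over the members and 50.4% over the genes tested. The correlation of GC content with the log2 fold change with rapamycin was 0.16 over the members and 0.09 over all genes.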

How the data were processed

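RNA-Seq was measured in 6 libraries from a stranded mRNA kit. After trimming, the authors quantified 88198 mouse transcripts with Kallisto, and their deposited tables hold estimated counts and TPM. A human reference is named in the methods although all identifiers are murine, and the Kallisto version is not given in the sources used here. A deposited ratio, the authors' fold change between the MEFs, was not used, and its table gave only the gene symbols. Transcripts with no symbol (0.372% to 0.468% of counts) were left out, and estimated counts and TPM were summed per symbol.

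For rapamycin and for the lines, rounded counts passing filterByExpr were scaled by TMM and fitted in edgeR 4.0.16 (quasi-likelihood, line plus treatment) with Benjamini-Hochberg adjustment at 0.05. The lines pair the libraries by label, and deviations of the MKOC libraries from the treatment means had a correlation of 0.562 over 12952 genes. Nothing says that libraries came from separate cultures, so p-values measure the spread between these libraries. The fits were tested on simulated data. MEF fold changes were of TPM + 1, called at 2-fold. Positions are from GENCODE M21 (GRCm38).

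The members and lists were chosen with earlier results of these data known. Named are *Myc*, the members with the extreme changes and the highest level in each group, and the extremes of each list. Other members named, and the further genes of the *Myc* network, were chosen after their values were seen. Tools were R 4.3.3, limma 3.58.1, DESeq2 1.42.0, Python 3.11.15, numpy 2.4.6, pandas 2.3.3 and statsmodels 0.14.6.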

Additional observations from a re-analysis of the deposited data

Results flagged for a closer look

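*Npm1* went up with rapamycin in MKOC cells and down in TJ cells, where the change in TJ minus that in MKOC was -0.34 on the log2 scale. Each line has 1 pair of libraries, and the difference was not tested.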

How the results depend on the processing

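The number of members lower with rapamycin was 36 with RLE or upper-quartile normalization, DESeq2, no filter, transcripts of 300 bases or more, or protein-coding transcripts (the last chosen after seeing the data), each time the same 36. It was 33 with limma on log2(TPM + 1). Without the replicate block (the cell line) it was 28, all among the 36, and the number higher was 0, as *Myc* did not pass. Leaving out 1 library, added after seeing the data, gave 0 to 12 lower and 0 to 0 higher, and 0 to 0 lower in TJ. These fits have 3 libraries, in which 30 to 35 members were lower with rapamycin at an unadjusted p below 0.05 (9.16% to 13.6% of all genes) and 0 to 1 differed between the lines (4.56% to 6.37%), and they called between 0 and 322 of all genes in a direction. Without the filter, 2 members were lower in TJ. With 1 library left out, *Polr1d* ranged from -0.10 (without untreated TJ) to 0.21 and was -0.07 without treated MKOC. *Npm1* was 0.11 without treated TJ, and 0.13 in MKOC and -0.21 in TJ alone. Removing the GC or the length trend left the members' median at -0.64 and -0.65.

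In the MEFs, the number at least 2-fold higher was 1 after scaling to the median ratio, with TMM-scaled counts, or with the GC or the length trend removed (15.8%, 15.3%, 12.8% and 13.6% of all genes). It was 5 with TPM over transcripts of 300 bases or more (19.9% of all genes), and 17 at 1.5-fold (42.8%). At least 2-fold lower were 2 after scaling, 4 with TMM, 2 and 3 with the GC and length trends removed, and 2 at 1.5-fold (8.21%, 9.28%, 9.81%, 10.1% and 9.65% of all genes). The members' median turned to -0.07 with TMM, -0.07 with the GC trend removed and -0.05 with the length trend removed, all of which also take out the general shift between the libraries. Other pseudocounts (0.1, 0.5 and 5) gave 6 to 9 higher (14.3% to 28.6% of all genes). With 1 library per genotype, none could be left out. Every member had 426 counts or more in each library.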
